A study of Mus musculus with 6 samples.

Results

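The NRF2 antioxidant genes described here are 8 listed genes of the pathway by which cells answer oxidants and electrophiles: Nfe2l2, Keap1, Hmox1, Nqo1, Gclc, Gclm, Txnrd1 and Srxn1. They were taken by symbol from a table of 55400 genes with Ensembl identifiers, and all 8 were found and passed the expression minimum of a mean FPKM of 1, which 12199 genes passed. FPKM scales the read count to exonic length and to the library's total count. The cells were motor neuron progenitors, the neural tube precursors of motor neurons, made in culture from C57BL/6 mouse embryonic stem cells that had been kept on fibroblast feeders. There were 3 libraries labelled Setd5sh and 3 labelled control, all with the genotype label WT, harvested on day 4 after 1 µM retinoic acid and 0.5 µM SAG, a Sonic hedgehog agonist, from day 2. Both groups have the same label text on doxycycline, 1 µg/mL begun 36 h ahead of harvest, and the sources used here do not say what hairpin, if any, the control cells carried. No label states that replicates came from separate cultures. The p-values therefore measure the spread among these libraries alone, and that spread may be technical.

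As background, NRF2, the product of Nfe2l2, is a transcription factor that KEAP1 holds in the cytoplasm and hands to a CUL3 ubiquitin ligase for destruction. Oxidants and electrophiles modify cysteines of KEAP1, NRF2 then escapes, pairs with a small MAF protein and binds antioxidant response elements near genes for glutathione synthesis, thioredoxin recycling, quinone reduction and heme breakdown. Because NRF2 is controlled mainly through its stability, the mRNA of Nfe2l2 does not by itself report NRF2 activity, and only mRNA was measured here.

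The stretches before the start sites were searched for the letters that NRF2 is known to bind, which 4 of the 6 genes that could be searched held. Of the 8 genes, 6 had windows in the RefSeq promoter table (GRCm38.p6), 8 windows in all, since Txnrd1 has 3 start sites; Hmox1 and Gclc had no entry. The search covered the 250 bases before each start, on both strands, for TGACNNNGC, the core of the antioxidant response element, and for TGAGTCAGC, a form that NRF2 with a small MAF also binds. Among all 32851 windows of this length, 10.2% held the first and 0.347% the second. Counted by gene, with any window of the gene, the shares of 27025 genes were 11.5% and 0.407%. The 4 genes with a match are shown 5′ to 3′ along their own strand, with the matched bases in capitals. They are Srxn1 at chr2:152105274-152105523 on the plus strand, Nfe2l2 at chr2:75704664-75704913 on the minus strand, Gclm at chr3:122245307-122245556 on the plus strand and the second start of Txnrd1 at chr10:82858956-82859205 on the plus strand.
Srxn1: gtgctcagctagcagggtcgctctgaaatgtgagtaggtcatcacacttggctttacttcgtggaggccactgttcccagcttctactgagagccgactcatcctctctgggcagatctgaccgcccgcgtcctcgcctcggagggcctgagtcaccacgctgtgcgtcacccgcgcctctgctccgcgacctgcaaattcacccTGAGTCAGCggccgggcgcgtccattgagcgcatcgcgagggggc
Nfe2l2: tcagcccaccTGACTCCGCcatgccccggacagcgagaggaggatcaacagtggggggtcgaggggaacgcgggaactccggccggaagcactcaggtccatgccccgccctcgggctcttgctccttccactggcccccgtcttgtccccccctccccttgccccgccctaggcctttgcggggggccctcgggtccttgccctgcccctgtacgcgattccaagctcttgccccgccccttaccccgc
Gclm: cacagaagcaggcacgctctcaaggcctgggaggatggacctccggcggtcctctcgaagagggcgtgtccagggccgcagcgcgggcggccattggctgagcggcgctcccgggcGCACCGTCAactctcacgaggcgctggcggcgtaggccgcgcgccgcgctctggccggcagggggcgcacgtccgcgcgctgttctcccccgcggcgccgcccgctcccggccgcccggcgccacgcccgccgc
Txnrd1: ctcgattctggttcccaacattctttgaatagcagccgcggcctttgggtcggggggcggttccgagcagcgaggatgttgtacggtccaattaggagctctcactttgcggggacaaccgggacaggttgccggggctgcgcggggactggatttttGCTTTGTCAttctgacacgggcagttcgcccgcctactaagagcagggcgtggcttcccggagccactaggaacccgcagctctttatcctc
In Srxn1 the capitals are TGAGTCAGC, 45 to 37 bases before the start. In Nfe2l2 they are TGACTCCGC, 240 to 232 bases before it. In Gclm and Txnrd1 the element lies on the opposite strand, at 134 to 126 and at 92 to 84 bases before the start. The shorter TGANTCA, the site of AP-1 factors, which overlaps TGAGTCAGC, occurred at 2 places in the Srxn1 window, one of them inside its capitals, and in 6.75% of all windows. No match to the 2 element forms was found in the windows of Keap1 or Nqo1 or in the other 2 of Txnrd1. A match is a description of letters, not a shown binding site.

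The libraries held 19639303 to 32046466 counts. Setd5, a SET domain gene and by its name the target of the Setd5sh hairpin, stood at 14.4, 13.5 and 12.9 FPKM in Setd5sh replicates 1, 2 and 3, against 22.2, 18.8 and 16.7 FPKM in the controls, so the groups did not overlap (log2 fold change -0.51, SE 0.16, edgeR adjusted p = 0.995, unadjusted p = 0.0143). The groups also did not overlap for 5.21% of all tested genes. The log2 fold change of Setd5 was -0.36 without control replicate 1 and -0.61 without control replicate 3. Progenitor markers summed to 418 to 501 FPKM in Setd5sh and 357 to 415 FPKM in control over 8 genes including Olig2 and Nkx6-1, without overlap. The genes of this list did not move together, as 5 had a log2 fold change above 0 and 3 below. Olig2 itself overlapped, at 115.8, 75.7 and 89.6 FPKM in Setd5sh, against 78.7, 65.6 and 76.6 FPKM in control, and so did Nkx6-1. Olig1 did not, at 24.23, 17.19 and 19.69 FPKM in Setd5sh, against 11.91, 12.71 and 17.06 FPKM in control. In this list 1 gene, higher in Setd5sh, had an edgeR unadjusted p under 0.05, against 1.22% of all tested genes. Neuron markers summed to 53.6 to 70.2 FPKM in Setd5sh and 39.5 to 44.9 FPKM in control over 7 genes, and Tubb3, a neuronal tubulin gene, carried that difference. Tubb3 stood at 53.5, 30.5 and 55.0 FPKM in Setd5sh replicates 1, 2 and 3, against 19.0, 17.3 and 26.1 FPKM in control. The other 6 neuron markers summed to 16.7, 23.1 and 15.0 FPKM in Setd5sh, against 20.5, 27.6 and 16.4 FPKM in control, which overlapped and were lower in Setd5sh within each same-numbered pair. Mnx1 carried that lower sum, at 7.16, 17.11 and 5.05 FPKM in Setd5sh, against 10.65, 22.78 and 11.34 FPKM in control. Each remaining neuron marker averaged higher in Setd5sh, from Stmn2 at 0.817 against 0.807 FPKM to Elavl3 at 4.75 against 3.58 FPKM. Pluripotency markers summed to 4.08 to 17.4 FPKM in Setd5sh and 8.04 to 22.5 FPKM in control over 6 genes, and fibroblast markers to 7.76 to 9.60 FPKM in Setd5sh and 5.78 to 9.03 FPKM in control over 8. Endoderm and mesoderm markers summed to 8.46 to 12.5 FPKM in Setd5sh and 8.87 to 14.6 FPKM in control over 8. The part of these marker differences in the values below was not tested. Macrophage, endothelial and blood markers summed to 1.98 to 3.81 FPKM in Setd5sh and 2.67 to 4.73 FPKM in control over 10 genes. Of these, the lysosomal gene Cd68 stood at 1.84, 2.85 and 1.86 FPKM in Setd5sh replicates 1, 2 and 3, against 2.36, 3.57 and 1.96 FPKM in control, the highest of the list on average. Ptprc and Hbb-bt were at 0 in all 6 libraries, and Adgre1 reached no more than 0.01 FPKM. In such bulk RNA, fewer cells of a type and less RNA per cell cannot be told apart. Control replicate 1 stood apart from the other 5 libraries. It was lowest of the 6 for 36.7% of the 12199 genes and highest for 31.9%, and genes in the fifth with the lowest GC content averaged 0.74 above their own 6-library mean there on the log2 scale, against -0.25 to 0.001 in the other libraries.

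The NRF2 genes did not separate Setd5sh from control. In edgeR's quasi-likelihood test 0 of the 8 passed an adjusted p of 0.05, 0 had an unadjusted p under 0.05, and 0 had Setd5sh and control libraries that did not overlap. Across the 12199 tested genes the same shares were 0%, 1.22% and 5.21%. DESeq2 and limma also called 0 of the 8, with 0 of them at an unadjusted p under 0.05 in each; over all tested genes 149 were under it in edgeR, 221 in DESeq2 and 152 in limma, and 0 were called by any of the 3. Of the 8 log2 fold changes (Setd5sh minus control), 4 were above 0 and 4 below, from -0.17 for Gclc to 0.34 for Hmox1, with a median of 0.01 against -0.04 over all tested genes. The 95% intervals of the 8 fold changes all held 1, and ran from 0.760 to 1.23 for Gclm, for example, and from 0.570 to 1.70 for Nqo1, whose interval was the widest of the 8. These intervals come from the edgeR standard errors and are not corrected for the number of genes.

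**Figure D1:**
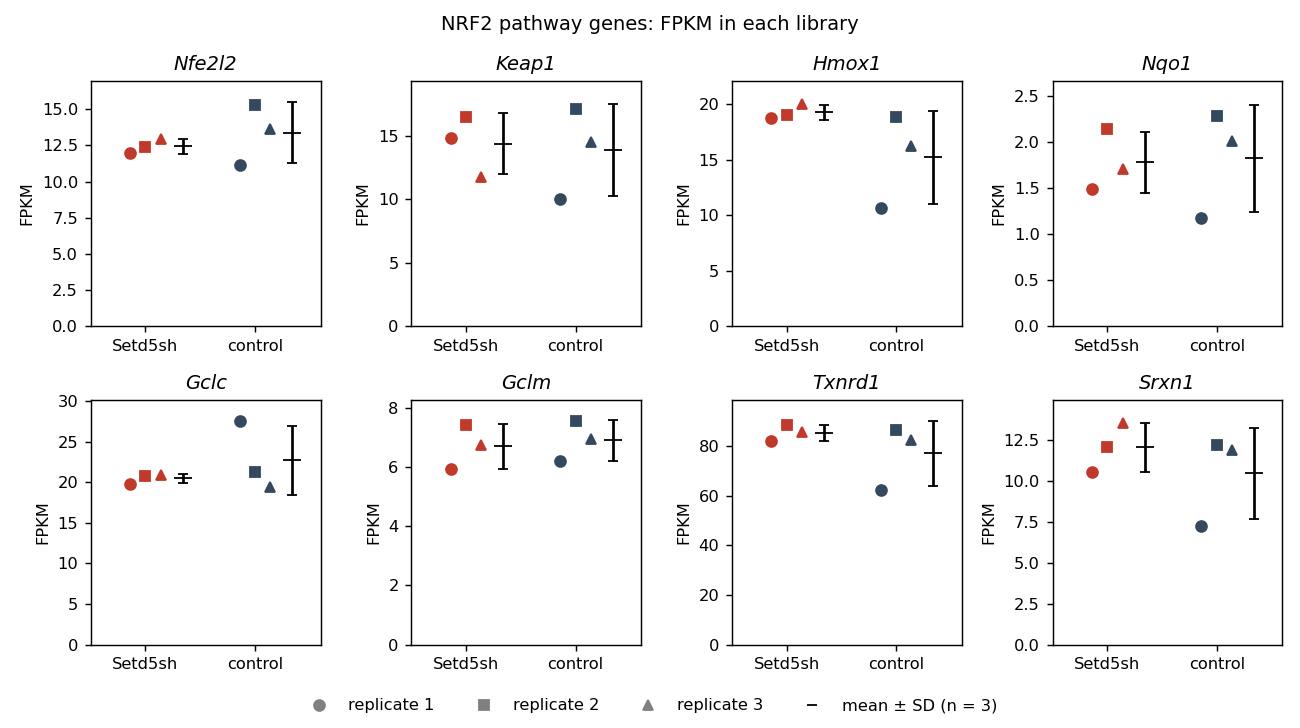
FPKM of the 8 NRF2 pathway genes, one panel a gene, in 3 Setd5sh libraries (red, left) and 3 control libraries (dark blue, right). Marker shapes give the replicate number and the black bars the mean ± SD of 3 libraries. Setd5sh and control points overlap in every panel, and control replicate 1 (circle) is the lowest point in 6 of the 8 panels and the highest for Gclc.

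By level per exonic length, Txnrd1 was the most abundant of the 8 at 81.1 ± 9.66 FPKM over all 6 libraries (SD, n = 6), higher than 95.4% of tested genes. Gclc followed at 21.6 ± 2.97, Hmox1 at 17.2 ± 3.48, Keap1 at 14.1 ± 2.76, Nfe2l2 at 12.9 ± 1.47, Srxn1 at 11.2 ± 2.17 and Gclm at 6.79 ± 0.651 FPKM. Nqo1 was last at 1.80 ± 0.423 FPKM, higher than 12.2% of tested genes. The ranges over libraries of Txnrd1 and Gclc did not overlap, nor did those of Gclm and Nqo1. Every other pair of neighbours in this order had overlapping ranges, although Gclc stood above Hmox1, Hmox1 above Keap1 and Srxn1 above Gclm within each of the 6 libraries.

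Nfe2l2 and Keap1, the factor and its inhibitor, were both expressed at intermediate level. Nfe2l2 (ENSMUSG00000015839, chromosome 2, from 75675513 to 75704641 on the minus strand of the mm10 build) stood at 12.0, 12.4 and 13.0 FPKM in Setd5sh replicates 1, 2 and 3, and at 11.1, 15.3 and 13.7 FPKM in the controls. All 3 Setd5sh values lay inside the control range. The log2 fold change was -0.11 (SE 0.15, edgeR adjusted p = 0.995), and -0.19 without control replicate 1 and -0.03 without control replicate 2. Keap1 (ENSMUSG00000003308, chromosome 9, from 21229730 to 21239361 on the minus strand) stood at 14.8, 16.5 and 11.8 FPKM in Setd5sh, against 9.99, 17.2 and 14.5 FPKM in control. Here too the Setd5sh values fell within the control range. Its log2 fold change of 0.05 (SE 0.21, adjusted p = 0.995) turned to -0.11 without control replicate 1 and to -0.03 without Setd5sh replicate 2, and was 0.20 without control replicate 2. An antisense gene, Gm16754, shares 10.9% of the exonic bases of Keap1; no source used here gives the strand setting of the counting, so reads of Keap1 and its antisense partner cannot be told apart there. The ratio of Nfe2l2 to Keap1 FPKM was 0.807, 0.750 and 1.10 in Setd5sh replicates 1, 2 and 3, against 1.11, 0.893 and 0.941 in control. The groups overlapped in this ratio as well (exact two-sided permutation test, p = 0.4, and 0.8 adjusted over 2 ratios; 3 against 3 cannot go below 0.1).

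Hmox1, which encodes the inducible heme oxygenase that breaks heme down to biliverdin, iron and carbon monoxide, had the largest log2 fold change of the 8 at 0.34 (SE 0.21, edgeR adjusted p = 0.995, unadjusted p = 0.143). Hmox1 (ENSMUSG00000005413, chromosome 8, from 75093621 to 75100589 on the plus strand) stood at 18.7, 19.1 and 20.0 FPKM in Setd5sh replicates 1, 2 and 3, and at 10.6, 18.8 and 16.2 FPKM in the controls. The Setd5sh values were close together, and control replicate 2 lay between 2 of them, so the groups overlapped by that one library. Setd5sh was higher in 3 of 3 same-numbered pairs, at 177%, 101% and 123% of control. Without control replicate 1 the log2 fold change was 0.16, and without control replicate 2 it was 0.49. The 95% interval of the fold change ran from 0.905 to 1.77, and permuting the group labels gave an exact two-sided p of 0.2. Hmox1 had an unadjusted p under 0.05 in both fits with GC and length trends removed, at 0.0432 in the blocked fit, which pairs libraries by number, and 0.0490 in the unblocked one; the fit without the block was chosen after seeing the data. By that measure 6.97% and 1.58% of all genes were under 0.05, with the block and without it. Hmox2, the constitutive heme oxygenase, averaged 22.4 ± 1.03 FPKM in Setd5sh libraries, against 23.7 ± 6.03 FPKM in control libraries (SD, n = 3 each).

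Nqo1 encodes a quinone reductase whose induction is a standard readout of NRF2 activity, and it was the least expressed of the 8. Nqo1 (ENSMUSG00000003849, chromosome 8, from 107388225 to 107403206 on the minus strand) had 48, 92 and 52 counts, or 1.49, 2.14 and 1.70 FPKM, in Setd5sh replicates 1, 2 and 3. In control replicates 1, 2 and 3 it had 58, 96 and 62 counts, or 1.17, 2.28 and 2.01 FPKM. The libraries of both groups were interleaved, with replicate 2 the highest in each. At these counts the exact 95% Poisson interval in Setd5sh replicate 1 runs from 1.10 to 1.98 FPKM, for counting error only. The log2 fold change was -0.02 (SE 0.34, edgeR adjusted p = 0.999), -0.24 without control replicate 1 and 0.14 without control replicate 2, so its direction rested on single libraries.

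Gclc and Gclm encode the catalytic and the modifier subunit of glutamate-cysteine ligase, the rate-limiting enzyme of glutathione synthesis. Gclc (ENSMUSG00000032350, chromosome 9, from 77754535 to 77794485 on the plus strand) stood at 19.8, 20.7 and 20.8 FPKM in Setd5sh replicates 1, 2 and 3, against 27.5, 21.3 and 19.4 FPKM in control. Control replicate 1 was above the other 5 libraries, which lay within 2 FPKM of each other. The log2 fold change was -0.17 (SE 0.18, edgeR adjusted p = 0.995), 0.04 without control replicate 1 and -0.27 without control replicate 3. Gclm (ENSMUSG00000028124, chromosome 3, from 122245557 to 122270732 on the plus strand) stood at 5.91, 7.41 and 6.75 FPKM in Setd5sh, against 6.19, 7.55 and 6.94 FPKM in control. Each Setd5sh library was within 5% of its same-numbered control, at 95.5%, 98.1% and 97.3%. The log2 fold change was -0.05 (SE 0.15, adjusted p = 0.995) and moved between -0.09 and 0.02 without single libraries; 4.71% of its exonic bases are shared with Gm17494 and Gm6061. The ratio of Gclm to Gclc FPKM was 0.298, 0.357 and 0.324 in Setd5sh, against 0.225, 0.355 and 0.358 in control (exact two-sided permutation test, p = 0.9, also 0.9 adjusted over 2 ratios). Control replicate 1 had the lowest ratio, and the other 5 libraries overlapped.

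Txnrd1 and Srxn1 act in thiol recycling, Txnrd1 as the cytosolic thioredoxin reductase, a selenoprotein, and Srxn1 as sulfiredoxin, which repairs overoxidized peroxiredoxins. Txnrd1 (ENSMUSG00000020250, chromosome 10, from 82833951 to 82897712 on the plus strand) stood at 82.0, 88.6 and 85.5 FPKM in Setd5sh replicates 1, 2 and 3, and at 62.1, 86.2 and 82.6 FPKM in the controls. Apart from control replicate 1, all libraries lay between 82.0 and 88.6 FPKM. The log2 fold change was 0.15 (SE 0.15, edgeR adjusted p = 0.995), 0.04 without control replicate 1 and 0.21 without control replicate 2. Srxn1 (ENSMUSG00000032802, chromosome 2, from 152105516 to 152111376 on the plus strand) stood at 10.5, 12.1 and 13.5 FPKM in Setd5sh, against 7.26, 12.2 and 11.9 FPKM in control. Control replicate 1 was again the lowest and the other control libraries lay within the Setd5sh range. The log2 fold change of 0.20 (SE 0.22, adjusted p = 0.995) dropped to 0.03 when control replicate 1 was left out and to 0.11 when Setd5sh replicate 3 was, and stood at 0.31 without control replicate 3. The mitochondrial and testis-type relatives were less abundant per length than Txnrd1, with Txnrd2 at 5.56 ± 0.718 FPKM in Setd5sh, against 5.54 ± 0.958 FPKM in control, and Txnrd3 at 10.2 ± 0.768 FPKM in Setd5sh, against 9.02 ± 1.79 FPKM in control (SD, n = 3 each).

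**Figure D2:**
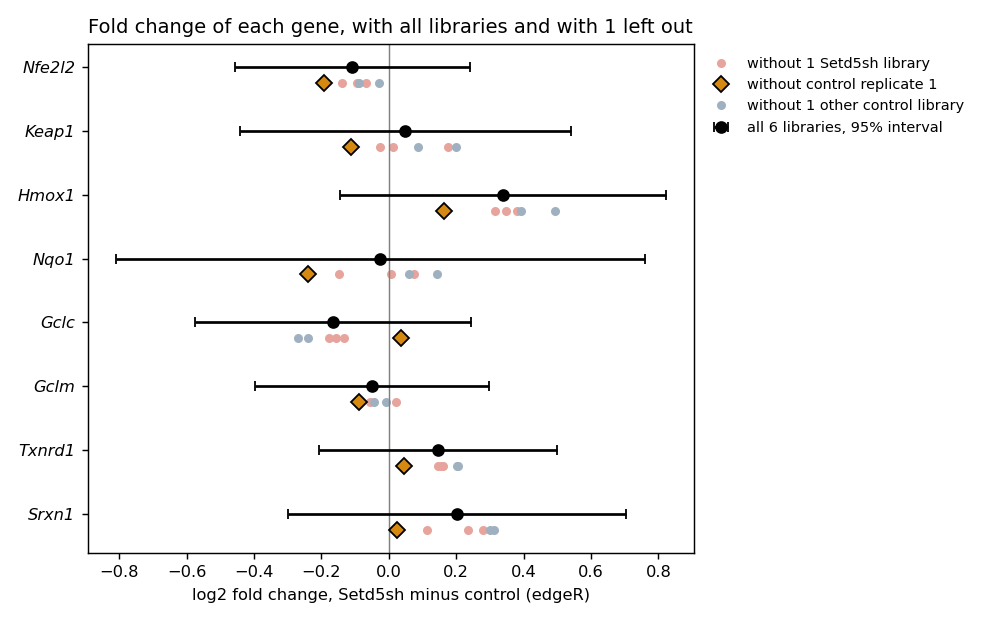
Log2 fold change, Setd5sh minus control, of each gene in edgeR. Black points and bars give the value and 95% interval with all 6 libraries; small points below give the value with 1 library left out, and the orange diamond that without control replicate 1. All intervals cross 0, and without control replicate 1 the value of Hmox1 is 0.16, of Srxn1 0.03 and of Txnrd1 0.04.

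Control replicate 1 was the library farthest from the mean for 6 of the 8 genes: Keap1, Hmox1, Nqo1, Gclc, Txnrd1 and Srxn1. For Nfe2l2 control replicate 2 was farthest, and for Gclm Setd5sh replicate 1. Control replicate 1 was also the lowest library for 6 of the 8 genes, all but Gclc and Gclm, against 36.7% of all tested genes, and the highest for Gclc. Against the mean of the other 5 libraries, its log2 level was -0.73 for Hmox1, -0.65 for Srxn1, -0.62 for Nqo1 and -0.50 for Keap1. It was -0.38 for Txnrd1, -0.18 for Nfe2l2 and -0.08 for Gclm, and 0.50 above that mean for Gclc, where the median over all tested genes was 0.001. From lowest to highest on the same scale, the 5 other libraries spread over 0.07 for Txnrd1, 0.09 for Gclc, 0.29 for Hmox1 and 0.33 for Srxn1, each less than the shift of control replicate 1. They spread over 0.53 for Nqo1 and 0.50 for Keap1, close to that shift, and over 0.28 for both Nfe2l2 and Gclm, more than it. After smooth trends against GC and exonic length were taken out of each library, a step chosen for these levels after seeing the data, the values were -0.44 for Hmox1, -0.35 for Srxn1, -0.77 for Nqo1, -0.18 for Keap1, -0.44 for Txnrd1, -0.33 for Nfe2l2, -0.83 for Gclm and 0.42 for Gclc. The 8 signs were the same with and without that step, but the sizes moved. Gclm went from -0.08 to -0.83, for example, and Keap1 from -0.50 to -0.18. The longest annotated transcripts of the 8 genes span a GC content of 42.1% for Gclm to 58.0% for Keap1. The labels name no batch, and the cause of the shifts in that library was not tested.

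**Figure D3:**
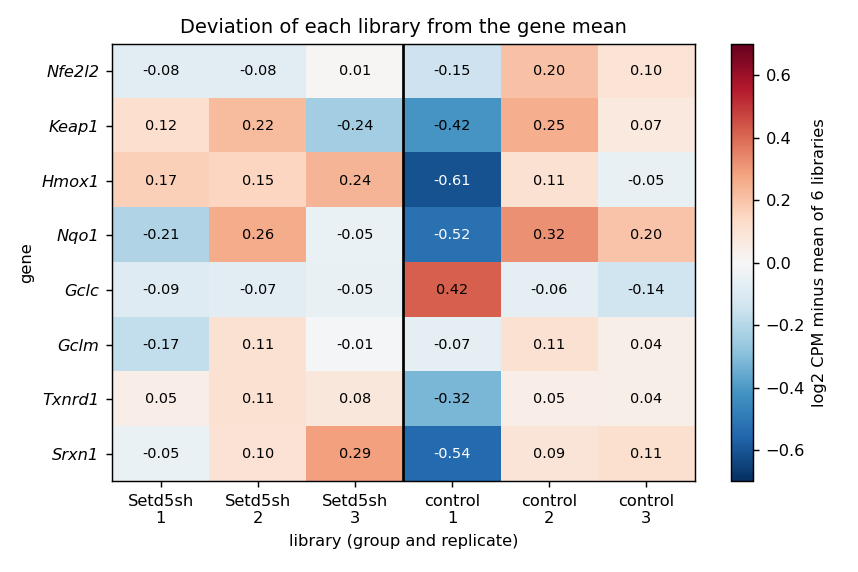
Log2 CPM (counts scaled to library size with TMM) of each gene in each library minus its mean over 6 libraries; rows are genes, columns are 3 Setd5sh libraries left of the line and 3 control libraries right of it. Control replicate 1 holds the darkest cells, at -0.61 for Hmox1, -0.54 for Srxn1, -0.52 for Nqo1 and 0.42 for Gclc.

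Profiles over the 6 libraries were compared by the root mean square difference of log2 (CPM + 1) centred on each gene's own mean, where 0 is the same profile. Among the 8, Nfe2l2 and Gclm were closest at 0.10, followed by Hmox1 and Srxn1 at 0.11, and Hmox1 and Gclc were farthest apart at 0.45. A flat profile, the same in all 6 libraries, lay at 0.117 from Nfe2l2 and 0.097 from Gclm. These 2 genes were thus close mainly because both varied little. From Hmox1 and Srxn1 a flat profile lay farther, at 0.28 and 0.25. Among all tested genes the 2 nearest to Hmox1 were Armc5 at 0.069 and Yrdc at 0.075, and those to Srxn1 were Commd9 at 0.032 and Fgd1 at 0.051. Those nearest to Txnrd1 were Rnf41 at 0.020 and Hspbap1 at 0.029, to Keap1 Cd63 at 0.032 and Pop7 at 0.035, and to Nqo1 Eef2kmt at 0.026 and Pip4k2c at 0.028. Nfe2l2 had Sord at 0.048 and Nckipsd at 0.050 as its nearest, Gclc had Ss18 at 0.023 and Ubxn4 at 0.029, and Gclm had Nrbf2 at 0.020 and Fbxo28 at 0.035. With 6 libraries, and control replicate 1 the extreme for most of the 8 genes, such likeness is a description of these libraries. Tested genes nearer than a flat profile numbered from 389 for Gclm to 4033 for Hmox1. None of the 8 had another of the 8 among its 2 nearest, which with so many near genes says little about the 8.

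The wider pathway showed as little difference between the groups. Of 26 other genes that NRF2 is known to act on, 21 were tested, 0 were called in either direction and 0 had an unadjusted p under 0.05. Of the 21, 9 had a log2 fold change above 0, against 42.6% of all tested genes, with a median of -0.02. The 3 with the smallest p were the exporter gene Abcc1 at -0.32 (SE 0.15), Pgd of the pentose phosphate pathway at 0.20 (SE 0.17) and the glutathione transferase gene Gstm1 at -0.23 (SE 0.26). Abcc1 stood at 3.33, 3.78 and 2.81 FPKM in Setd5sh replicates 1, 2 and 3, against 3.99, 4.34 and 3.96 FPKM in control, without overlap; 5.21% of tested genes had groups that did not overlap. Pgd was at 0.09 and Gstm1 at -0.44 when control replicate 1 was left out, and at 0.33 and -0.07 when control replicate 3 was. Abcc1 was at -0.21 without Setd5sh replicate 3. Of the 5 untested targets, Osgin1, Gsta3 and Aldh3a1 reached at most 0.05 FPKM in any library, and Slc7a11, the cystine carrier, stood at 0.60, 0.05 and 0.97 FPKM in Setd5sh and 0.77, 0.04 and 0.14 FPKM in control.

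Of 12 relatives, partners and degraders of NRF2, 11 were tested and 0 were called. Their median log2 fold change was 0.05, with 6 above 0, against 42.6% of all tested genes. Nfe2l1, a related factor known for inducing proteasome genes, stood above Nfe2l2 in every library. It averaged 51.4 ± 2.68 FPKM in Setd5sh, against 46.5 ± 2.57 FPKM in control (SD, n = 3 each, log2 fold change 0.14, SE 0.13, edgeR unadjusted p = 0.317). Its groups did not overlap, as for 5.21% of all tested genes. Nfe2l3 was under the minimum, at 0.42 ± 0.16 FPKM in Setd5sh, against 0.57 ± 0.036 FPKM in control. Cul3, the scaffold of the ligase that takes up NRF2, stood at 19.1, 18.1 and 21.7 FPKM in Setd5sh, against 32.5, 19.0 and 18.4 FPKM in control. Bach1, a repressor that competes with NRF2 at Hmox1 and other targets, stood at 11.1, 10.9 and 9.89 FPKM in Setd5sh, against 16.2, 12.0 and 8.82 FPKM in control. Both were highest in control replicate 1, where Hmox1 was lowest. That library was the highest for 31.9% and the lowest for 36.7% of all tested genes, and a link between these genes was not tested. The log2 fold changes of Cul3 and Bach1, -0.27 (SE 0.26) and -0.23 (SE 0.23), turned to 0.10 and 0.06 without control replicate 1. With GC and length trends removed, the log2 level of control replicate 1 against the mean of the other 5 was -0.22 for Cul3 and 0.44 for Bach1, and 0.83 and 0.70 before.

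Of 28 other glutathione, thioredoxin and antioxidant enzymes, 26 were tested and 0 were called. Their median log2 fold change was 0.01, with 15 above 0, against 42.6% of all tested genes. An unadjusted p under 0.05 was found for 1 of them, against 1.22% of all tested genes. That gene was Chac1, which degrades glutathione and is a target of ATF4, at 36.8, 7.49 and 33.2 FPKM in Setd5sh replicates 1, 2 and 3, against 12.5, 4.50 and 10.5 FPKM in control (log2 fold change 1.48, SE 0.61). Gpx8, a peroxidase of the endoplasmic reticulum, and Msra, which reduces oxidized methionine, were next at -0.33 (SE 0.19) and 0.39 (SE 0.26). Of 10 heme and iron genes, 9 were tested and 0 were called, with 2 above 0, against 42.6% of all tested genes, and a median of -0.09. The 3 with the smallest p were Tfrc, the transferrin receptor, at -0.45 (SE 0.47), Fech, which inserts iron into heme, at -0.16 (SE 0.19), and Blvrb, a biliverdin reductase, at -0.29 (SE 0.40). Tfrc turned to 0.39 without control replicate 1. Fech was at -0.27 when control replicate 1 was left out and at -0.04 when control replicate 2 was, and Blvrb was at -0.65 when Setd5sh replicate 2 was left out and at -0.07 when Setd5sh replicate 3 was.

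Integrated stress response genes, some of which share targets with NRF2, are set beside the 8 genes in the same libraries. The list was chosen with earlier results of these data known, so its values are a description and not an independent contrast. It shares Chac1 with the list of other antioxidant enzymes and Slc7a11 with that of other NRF2 targets. Of 24 listed, 21 were tested, 0 were called and 9 had an unadjusted p under 0.05, against 1.22% of all tested genes. Of the 21, 19 had a log2 fold change above 0, against 42.6% of all tested genes. The list median was 0.81, against 0.01 for the 8 NRF2 genes. The list summed to 1394, 653 and 1414 FPKM in Setd5sh replicates 1, 2 and 3, and to 734, 559 and 722 FPKM in the controls. Setd5sh replicate 2 thus lay within the control range for the stress list, whereas for Hmox1 it stood between Setd5sh replicates 1 and 3. Atf5, Sesn2 and Pck2 had the smallest p of the list, at log2 fold changes of 0.98 (SE 0.31), 1.05 (SE 0.33) and 0.95 (SE 0.31), at unadjusted p of 0.0131, 0.0141 and 0.0168, and edgeR called these 3 and Chac1 with no expression filter and in the added fit without pair 1. Those fits called 73 and 70 genes over the whole table. The 8 NRF2 genes together summed to 165, 179 and 173 FPKM in Setd5sh, against 136, 181 and 167 FPKM in control, mostly Txnrd1.

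**Figure D4:**
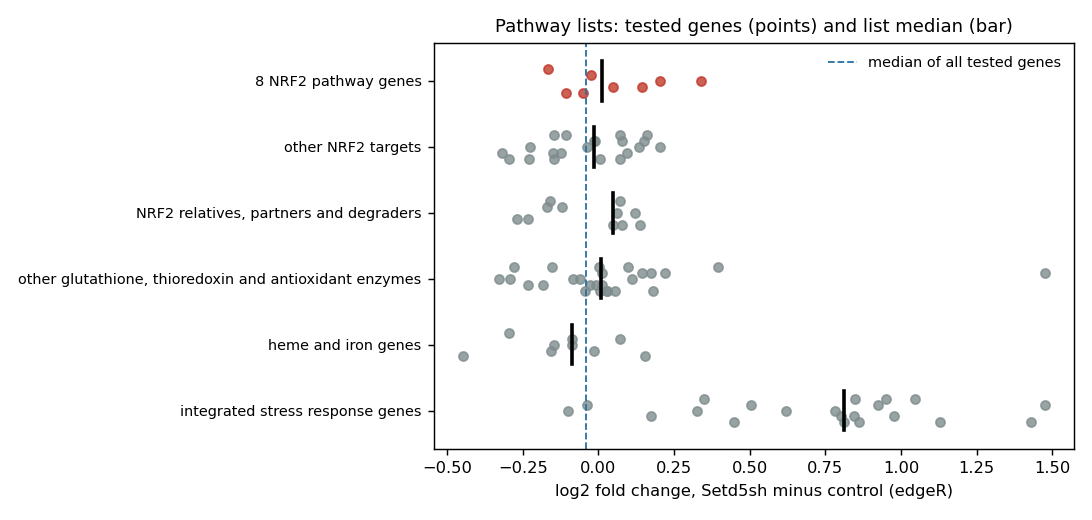
Log2 fold changes, Setd5sh minus control, of the tested genes of each list (points; the 8 NRF2 pathway genes in red) with the list median (black bar) and the median of all 12199 tested genes (dashed line, -0.04). The medians of the 8 NRF2 genes, at 0.01, and of the other targets, at -0.02, lie near that line, and that of the integrated stress response list at 0.81.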

How the data were processed

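The authors deposited a single table that gives each gene's exonic length and, for each of 6 RNA-seq libraries, its raw count and its FPKM. The submitters' processing notes name the mm10 build and the tools HTSeq, HISAT2, DESeq2 and SAMtools, without roles. No source used here states the annotation release or the strand setting. The deposited FPKM equals the count scaled by exonic length and column total to within 0.005 FPKM. Symbols and positions came from GENCODE M21 on the same build, which named 55140 identifiers; the exonic lengths of the 8 genes equal those of M21. The depth limits precision mainly for Nqo1, with 48 to 96 counts a library.

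The test was edgeR's quasi-likelihood test on the counts over the 12199 genes with a mean FPKM of at least 1, with TMM scaling, two-sided, Benjamini-Hochberg adjusted, threshold 0.05. The genes and lists were chosen with earlier results of these data known. Besides the 8 genes and Setd5, the text names the 3 tested genes with the smallest p of each list and the 2 nearest profiles of each gene. Hmox2, Nfe2l3, Txnrd2, Txnrd3, Slc7a11, Osgin1, Gsta3, Aldh3a1, Fth1, Ftl1, Olig1, Tubb3, Mnx1, Stmn2, Elavl3 and Cd68 were added after their values were seen. The symbol Tbxt was not matched. Replicate numbers, shared by both groups, were taken to pair libraries, since libraries of the same number deviated from their groups together (correlation over genes 0.183 for number 1, 0.663 for 2 and 0.139 for 3); control replicate 1 correlated with Setd5sh replicate 3 at 0.166. On simulated counts for this comparison over 12199 genes, the test found 86% of the genes changed 4-fold and 29% of those changed 2-fold, and called 4 unchanged genes. The simulation drew genes independently, without pairs and without the GC trend of control replicate 1. Its shares therefore need not hold for these libraries. Alternatives used DESeq2 1.42.0, limma 3.58.1 on log2 (FPKM + 1), GC and length trends from mgcv 1.9.3, other scalings and filters, and fits without single libraries; edgeR was 4.0.16, in R 4.3.3.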

Additional observations from a re-analysis of the deposited data

How the results depend on the processing

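Under 18 alternative fits, 6 of them leaving out 1 library, 0 of the 8 NRF2 genes passed the adjusted threshold in any. Nfe2l2, Hmox1, Txnrd1 and Srxn1 had the same direction in all 18, Hmox1 between 0.16 and 0.49. No gene passed over the whole table except with no filter, where edgeR called 73 genes, 13 of them in the 5 pathway lists, and in the added fit without pair 1 with the replicate block, which leaves 1 residual degree of freedom and called 70, also 13 of them in those lists. The count of NRF2 genes with an unadjusted p under 0.05 was 1, Hmox1, with GC and length trends removed, both with the replicate block and, as an added alternative, without it, and 0 elsewhere. Their median log2 fold change ran from -0.05 to 0.17 without single libraries. Keap1 was at -0.17 without pair 1 and ran from -0.11 to 0.20 without single libraries. Nqo1 was at 0.025 with no filter, 0.0025 with limma and a pseudocount of 0.1, and 0.096 and 0.066 with GC and length trends removed, with the replicate block and without it, and ran from -0.24 to 0.14 without single libraries. Gclc was at 0.044 without pair 1 and ran from -0.270 to 0.0375; Gclm was at 0.011 with no filter and at 0.17 and 0.12 with GC and length trends removed, with the block and without it, and ran from -0.0930 to 0.0200. For Cul3 the values were 0.11 and 0.11 with those trends removed, 0.095 without pair 1, and -0.42 to 0.10 without single libraries. For Tfrc, in the same order, they were 0.075 and 0.043, 0.31, and -0.74 to 0.39. Bach1 was at 0.018 without pair 1 and -0.428 to 0.0566. With a mean FPKM of at least 5, Nqo1 had no value. The replicate block alone changed no call and no direction of the 8; Hmox1 was at 0.37 with it. The cause of the turns was not tested.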

Other observations

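Control replicate 1 was also an extreme for 3 iron-handling genes, chosen after their values were seen. Ftl1, the ferritin light chain gene, stood at 1193, 2242 and 1400 FPKM in Setd5sh replicates 1, 2 and 3, against 764, 2468 and 2137 FPKM in control. Fth1, the ferritin heavy chain gene, stood at 101, 116 and 85.6 FPKM in Setd5sh, against 64.2, 120 and 121 FPKM in control, and Tfrc at 15.0, 11.2 and 17.1 FPKM in Setd5sh, against 35.2, 11.2 and 11.3 FPKM in control. Both ferritin genes were thus lowest, and Tfrc highest, in control replicate 1. Ferritin genes have near-identical pseudogenes, so their counts are uncertain. With GC and length trends removed, the log2 level of that library against the mean of the other 5 was -0.83 for Ftl1, -0.57 for Fth1 and 0.52 for Tfrc, and -1.18, -0.68 and 1.51 before. Their GC contents were 58.1%, 50.0% and 39.8%.

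By list, control replicate 1 was the lowest library for 16 of the 21 tested other NRF2 targets, 18 of the 26 other antioxidant enzymes and 6 of the 9 heme and iron genes. It was lowest for 4 of the 11 relatives, partners and degraders of NRF2 and 3 of the 21 integrated stress response genes, against 36.7% of all tested genes.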
